A study of Homo sapiens with 24 samples.

Results

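The zinc finger genes of the long arm of chromosome 19 are 166 protein-coding genes of RefSeq whose symbols read ZNF and a digit and whose start lies beyond the centromere of that chromosome, out of 19866 coding genes placed on the chromosome sequences. They were examined for H4K20me3, the trimethylated lysine 20 of histone H4, in HN-SCC-151, a human line of squamous cell carcinoma of the head and neck. The assay was CUT&RUN, in which a nuclease held by an antibody frees the DNA around the modified histone. For 6 days the cells received DMSO (3 libraries), A-196 at 2.5 µM (3 libraries), the control siRNA siNC (4 libraries) or siSUV420H1 siRNA (4 libraries). A-196 inhibits SUV420H1 and its paralog SUV420H2, the enzymes that add methyl groups to H4K20, and the siRNA targets SUV420H1 (gene symbol KMT5B). Per the series' design, each condition had 3 dishes and each reaction took 500000 cells, so among the 4 libraries of an siRNA group some may share a dish, and a p-value here reflects the spread of these libraries only. Peaks of the inhibitor arm had been called against IgG of DMSO cells, and those of the siRNA arm against an IgG library whose label names no treatment. The remaining 10 of the 24 samples (IgG, H3K4me3 and H3K27me3) were not analysed here. Neither the depletion of SUV420H1 nor the identity of the line can be checked from lists of H4K20me3 peaks.

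Most of these genes encode proteins with a KRAB domain followed by an array of C2H2 zinc fingers. The fingers bind DNA, often in transposable elements, and the KRAB domain recruits the co-repressor TRIM28, which brings in SETDB1, an H3K9 methyltransferase. HP1 proteins bind methylated H3K9 and can recruit the SUV420H enzymes, so H4K20me3 is known to accompany H3K9me3 in constitutive heterochromatin. The genes arose largely by tandem duplication, lie in clusters along chromosome 19, and many of their own bodies are known to carry H3K9me3, with the zinc finger exons near the 3′ end as a preferred place and ZNF274 as a factor that recruits SETDB1 there.

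The measure was the length in kb of each gene span, extended by 2 kb on both sides, that lay under the peaks of a library. A gene was marked where that length was at least 200 bp. Strand was known for the 146 members that had an entry in the RefSeq promoter table (GRCh38.p14), which covers 250 bases before to 50 bases after a start. Of the 5 promoters printed here, in 5′ to 3′ order with each CG in capitals, ZNF274 shows the sequence of a promoter under peaks in all 14 libraries. ZNF419 shows one under peaks in every siSUV420H1, DMSO and A-196 library and in no siNC library, and ZNF404 one under peaks in every DMSO and no A-196 library. ZNF234 shows a promoter that was never under a peak in a gene marked in all 14 libraries, and ZNF304 a promoter of a gene marked in none. The 5 were chosen after their values were seen.
ZNF274: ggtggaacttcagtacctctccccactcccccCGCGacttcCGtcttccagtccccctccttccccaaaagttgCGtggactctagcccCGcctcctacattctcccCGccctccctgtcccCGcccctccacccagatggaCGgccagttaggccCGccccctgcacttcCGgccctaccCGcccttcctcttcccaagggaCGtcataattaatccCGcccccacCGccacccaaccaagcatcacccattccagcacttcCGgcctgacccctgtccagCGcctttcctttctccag
ZNF419: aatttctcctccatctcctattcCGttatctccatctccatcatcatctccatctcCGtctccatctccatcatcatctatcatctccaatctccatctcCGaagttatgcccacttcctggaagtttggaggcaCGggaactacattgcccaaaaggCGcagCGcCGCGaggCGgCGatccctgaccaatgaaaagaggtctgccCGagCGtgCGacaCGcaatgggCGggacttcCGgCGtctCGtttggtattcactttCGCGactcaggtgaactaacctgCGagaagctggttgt
ZNF404: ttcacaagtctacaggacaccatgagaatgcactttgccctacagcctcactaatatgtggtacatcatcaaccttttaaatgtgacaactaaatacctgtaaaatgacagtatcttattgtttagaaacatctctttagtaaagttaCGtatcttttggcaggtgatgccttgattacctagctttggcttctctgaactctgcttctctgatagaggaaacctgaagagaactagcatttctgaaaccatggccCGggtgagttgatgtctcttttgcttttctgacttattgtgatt
ZNF234: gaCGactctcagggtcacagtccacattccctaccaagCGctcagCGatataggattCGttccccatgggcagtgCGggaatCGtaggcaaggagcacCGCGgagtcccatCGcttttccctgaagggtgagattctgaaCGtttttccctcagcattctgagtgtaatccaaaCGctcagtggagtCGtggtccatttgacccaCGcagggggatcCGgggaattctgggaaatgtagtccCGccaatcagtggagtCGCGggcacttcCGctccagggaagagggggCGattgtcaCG
ZNF304: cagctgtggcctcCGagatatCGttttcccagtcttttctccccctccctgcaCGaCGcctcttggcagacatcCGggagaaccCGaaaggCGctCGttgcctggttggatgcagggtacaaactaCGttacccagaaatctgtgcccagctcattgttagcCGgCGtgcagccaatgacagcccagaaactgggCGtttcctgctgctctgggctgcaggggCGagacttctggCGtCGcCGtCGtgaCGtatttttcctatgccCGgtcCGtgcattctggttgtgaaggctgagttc
These windows lie at chr19:58182811-58183110 (plus strand, ZNF274), chr19:57487500-57487799 (plus, ZNF419), chr19:43883915-43884214 (minus, ZNF404), chr19:44141304-44141603 (plus, ZNF234) and chr19:57351021-57351320 (plus, ZNF304). The ZNF404 window holds 2 CG, the fewest among the members, and the other windows hold 16 (ZNF274), 21 (ZNF419), 20 (ZNF234) and 20 (ZNF304). CG reads the same on both strands. It occurs in 98.1% of the 15842 coding-gene windows in the table and in all 146 of the members.

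Before the results, the libraries of the A-196 group stood apart from each other. Peaks covered 79.6, 104 and 107 Mb of the genome in A-196 replicates 1, 2 and 3, against 145 to 153 Mb in DMSO, 183 to 193 Mb in siNC and 118 to 130 Mb in siSUV420H1. Within the member spans the mean Jaccard index of covered bases (shared over combined bases) was 0.661 between A-196 libraries, against 0.818 in DMSO, 0.864 in siNC and 0.884 in siSUV420H1. A-196 replicate 3 had the longest length under peaks over the members of all 14 libraries and replicate 2 the shortest of its group, so A-196 values are given by library. The lists hold no read counts, so depth is unknown and a gene without a peak may hold signal too low to be called.

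H4K20me3 peaks lay over most of these genes in every group. On average 126 ± 1.53 members were marked in DMSO (SD, n = 3), 136 ± 5.69 in A-196 (n = 3), 118.5 ± 1.73 in siNC (n = 4) and 128 ± 0.957 in siSUV420H1 (n = 4). Peaks covered 51.2% of the summed spans in DMSO and 45.6% in siNC, against 48.95% and 51.98% for the 84 ZNF genes of the short arm, 14.2% and 16.7% for the 267 ZNF genes on other chromosomes, and 2.90% and 3.72% for all coding genes. The 637 other coding genes of the long arm had 3.34% in DMSO and 3.22% in siNC. These shares were compared without a test.

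**Figure D1:**
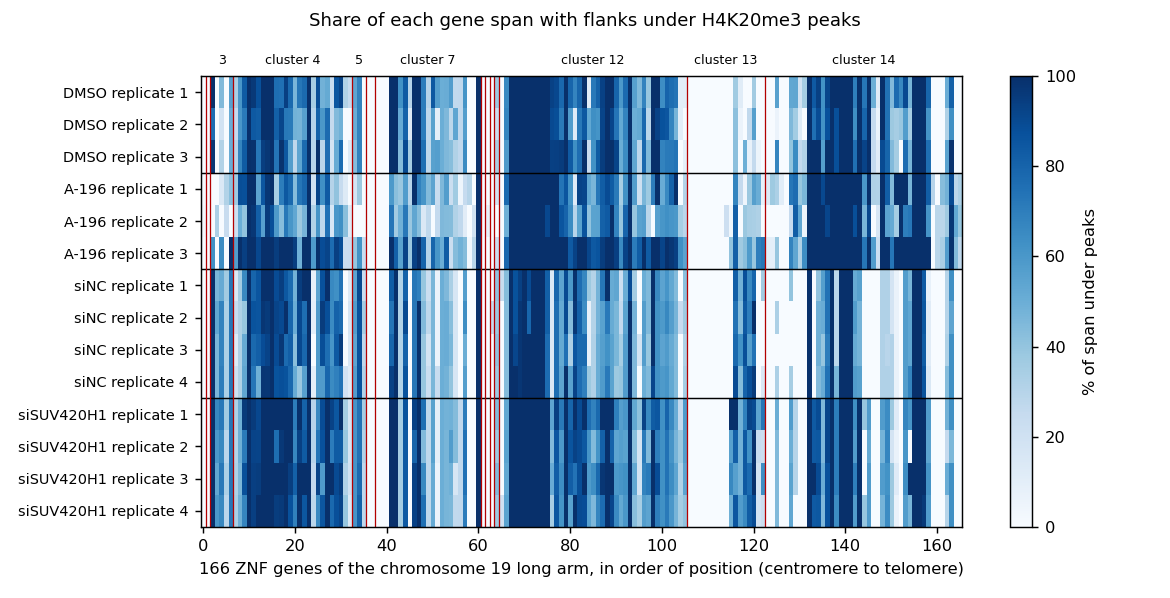
Share of each gene span with its flanks under H4K20me3 peaks, from 0 (white) to 100% (dark blue), for the 166 genes in order of position (columns) and the 14 libraries (rows); black lines part the 4 groups and red lines part the position clusters. Blocks of dark columns recur in all libraries, the left part of cluster 13 is white throughout, and the columns of cluster 14 are paler in the 4 siNC libraries than in the DMSO and A-196 libraries.

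The members fell into 3 kinds by how steadily they were marked. In all 14 libraries 98 were marked, in some of them 52, and in none 16. The whole span with both flanks lay under peaks in all 14 libraries for 15 genes: ZNF260, ZNF383, ZNF180, ZNF649, ZNF615, ZNF432, ZNF841, ZNF616, ZNF772, ZNF416, ZNF134, ZNF211, ZNF551, ZNF329 and ZNF274. The 16 unmarked genes were ZNF507, ZNF574, ZNF526, ZNF575, ZNF576, ZNF428, ZNF296, ZNF628, ZNF579, ZNF524, ZNF865, ZNF784, ZNF581, ZNF580, ZNF787 and ZNF304. Their median length was 7.88 kb, against 26.2 kb for the 98, and a longer span offers more bases to a peak. Of the 5054 kb that the spans cover once overlaps are merged, 24.7% was under peaks in all 14 libraries and 26.4% in none.

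The longest stretch under peaks in all 14 libraries was 141 kb wide, at chr19:52024001-52165000 (hg38), and touched ZNF614, ZNF432, ZNF841, ZNF616 and ZNF836. The next was 135 kb, at chr19:58097001-58232000, and touched ZNF329, ZNF274 and ZNF544. ZNF274 itself (chr19:58183061-58213562) had 34.5 kb under peaks in each of the 14 libraries, its full span with flanks. The widest single peak on a member was 338 to 342 kb in the DMSO libraries and 313 to 349 kb in the A-196 libraries, 141 to 202 kb in siNC and 235 to 402 kb in siSUV420H1. In DMSO and A-196 that widest peak lay around ZNF432 and ZNF616, and in siSUV420H1 it lay in the cluster that runs from ZNF565 to ZNF573.

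After knockdown of SUV420H1 more of these genes' length lay under H4K20me3 peaks. The members summed to 2454, 2465, 2393 and 2424 kb under peaks in siNC replicates 1 to 4 and to 3110, 2879, 3031 and 2891 kb in siSUV420H1 replicates 1 to 4. Every siSUV420H1 library lay above every siNC library, by 544 kb between the means (2434 ± 32.5 kb and 2978 ± 112 kb, SD, n = 4 each), or 22.3%. Over all coding genes the same difference was -26.8%, with means of 51036 kb in siNC and 37373 kb in siSUV420H1. Short-arm ZNF genes had 29.2% more, ZNF genes on other chromosomes 1.76% more and other long-arm genes 0.681% more. Of the other long-arm genes, the 66 that start within the ZNF gene clusters described below rose by 52.6 kb. All other long-arm genes together rose by 3.36 kb, so those outside the clusters had less length in sum. The differences between these gene groups were not tested.

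**Figure D2:**
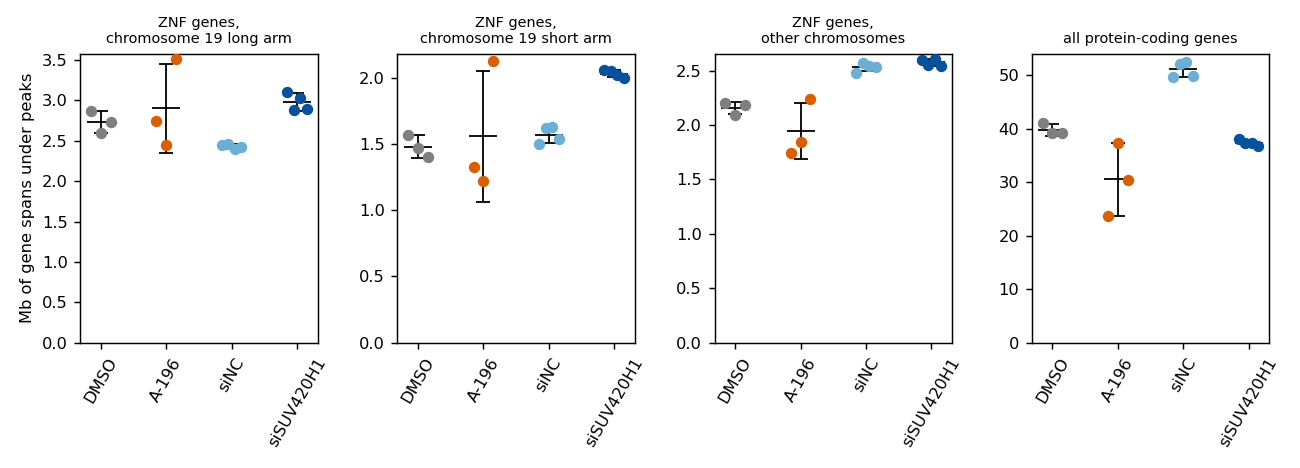
Length of gene spans with flanks under H4K20me3 peaks, in Mb, per library (points) with the group mean and SD (bars), for ZNF genes of the chromosome 19 long arm, of the short arm and of other chromosomes and for all protein-coding genes. The 4 siSUV420H1 libraries lie above the 4 siNC libraries in both chromosome 19 panels and below them in the panel of all genes, and the 3 A-196 libraries spread widely.

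Of the 131 members with a peak in the siRNA arm, 52 had more length under peaks in every siSUV420H1 library than in every siNC library and 1 had less. Among all 3985 coding genes with a peak in the arm, 10.4% lay higher in this way and 33.6% lower. With 4 libraries against 4 the exact two-sided permutation test cannot give a p below 0.0286; each of the 53 members reached that value, and its Benjamini-Hochberg adjusted value over all tested genes was 0.0650, above the threshold of 0.05. So 0 members passed the adjusted exact permutation test. The 53 with an unadjusted exact permutation p under 0.05 (43.9% of all tested genes had one) are these same members. Only full separation of the groups gives such a p, so it restates the calls. In limma on log2(kb + 1), whose model pools the spread of all genes, 55 members were higher and 1 lower at an adjusted p of 0.05, against 12.2% and 37% of all tested genes. The median difference was 2.73 kb over the 131 members with a peak and -1.25 kb over all tested genes.

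Over the merged spans 1887 kb lay under peaks in all 8 libraries of the arm, 177 kb under peaks in every siSUV420H1 library and no siNC library, and 2 kb the other way round. The 177 kb came in 62 stretches, of which 52 (83.9%), with 113 kb (63.7%), adjoined a siNC peak. The remainder of the added length lay under peaks in some libraries of a group and not in others. Peaks on members numbered 122 ± 4.51 in siNC and 115 ± 4.11 in siSUV420H1 (SD, n = 4 each), with group means of the median width of 13.5 kb and 16.2 kb. In all, the members held 1.21% of the genome's covered bases in siNC and 2.23% in siSUV420H1. The total of covered bases was itself smaller in siSUV420H1 (118 to 130 Mb) than in siNC (183 to 193 Mb), which raises the second share as well.

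Marking was gained, meaning present in every siSUV420H1 library and in no siNC library, for 5 members, and lost for 0; among all tested genes 1.71% were gained and 14.9% lost. The gained genes were ZNF235, ZNF582, ZNF71, ZNF419 and ZNF586. ZNF419 (chr19:57487750-57496098) had 0 kb in the 4 siNC libraries and 10.3, 10.3, 12.3 and 10.3 kb in siSUV420H1 replicates 1 to 4. Its DMSO libraries held 10.3, 9.35 and 12.3 kb and each A-196 library 12.3 kb, so siNC alone lacked it, and the printed promoter lay under those peaks. ZNF586 (chr19:57769676-57780616), nearby, also had 0 kb in siNC and 8.62, 7.62, 8.62 and 8.62 kb in siSUV420H1. Its span was whole under peaks in the DMSO libraries, at 14.9 kb each.

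ZNF235 (chr19:44286348-44305025) had 0 kb in each siNC library and 6.02 kb in each siSUV420H1 and each DMSO library. ZNF582 (chr19:56382751-56393534), a gene whose promoter methylation is used as a marker in cervical cancer, had 0 kb in siNC and in DMSO and 14.8, 8.25, 9.78 and 7.25 kb in the siSUV420H1 libraries. ZNF71 (chr19:56595302-56624486) had 0 kb in siNC and 18, 8, 6 and 6 kb in siSUV420H1. Thus ZNF419, ZNF586 and ZNF235 were marked in both DMSO and siSUV420H1, whereas ZNF582 was unmarked in both control groups and ZNF71 was marked in 1 of the 7 control libraries, DMSO replicate 3, at 1.70 kb. With peaks of at least 10 kb only, ZNF586 and ZNF71 were no longer higher in every siSUV420H1 library.

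The 5 largest differences among the 52 were those of ZNF420, ZNF600, ZNF83, ZNF568 and ZNF566. ZNF420 (chr19:37007902-37130368), which encodes a KRAB protein known as a negative regulator of p53, had 60.4, 63.4, 53.5 and 64.5 kb in siNC and 88.5, 84.4, 102 and 86.5 kb in siSUV420H1, a mean difference of 30.02 kb. ZNF600 (chr19:52764164-52833645) had 53.5, 40.5, 41.5 and 42.5 kb in siNC and 73.5, 59.5, 71.5 and 56.5 kb in siSUV420H1. ZNF83 (chr19:52612377-52690496) had 25.1, 25.1, 26.1 and 26.1 kb against 56.1, 36.1, 52.1 and 37.1 kb. In ZNF600 and ZNF83 siSUV420H1 replicates 1 and 3 were the higher pair, and no siSUV420H1 library overlapped siNC in any of the 3 genes.

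ZNF568 (chr19:36916332-36997932), whose mouse counterpart represses a placental promoter of Igf2, had 65.9, 67.6, 69.9 and 66.9 kb in siNC. In siSUV420H1 it had 85.6, 85.6, 80.7 and 74.6 kb, and the first 2 of these are its full span. ZNF566 (chr19:36445119-36489561) had 31.9, 18.9, 24.9 and 25.9 kb in siNC and 46.4, 34.4, 42.4 and 32.4 kb in siSUV420H1, so its groups came within 1 kb of each other, and its call ended without the flanks. The limma log2 differences, with an offset of 1 kb, were 0.57 ± 0.084 (SE) for ZNF420, 0.54 ± 0.125 for ZNF600 and 0.77 ± 0.154 for ZNF83, with adjusted p values of 0.00122, 0.0115 and 0.00590.

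ZNF780B (chr19:40028260-40056231) was the 1 member with less length in every siSUV420H1 library. It had 28.97, 27.97, 27.97 and 27.97 kb in siNC and 23.7, 23.7, 24.7 and 25.97 kb in siSUV420H1, a difference of -3.67 kb that became 7.32 kb when each library's lengths were scaled to its covered total, and 0.5 kb with peaks of at least 10 kb only. In the other arm it had 21.7 kb in each DMSO library and 12, 0 and 19.7 kb in the A-196 libraries. All 8 libraries of the siRNA arm therefore held more of this gene under peaks than any of the 6 of the inhibitor arm.

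**Figure D3:**
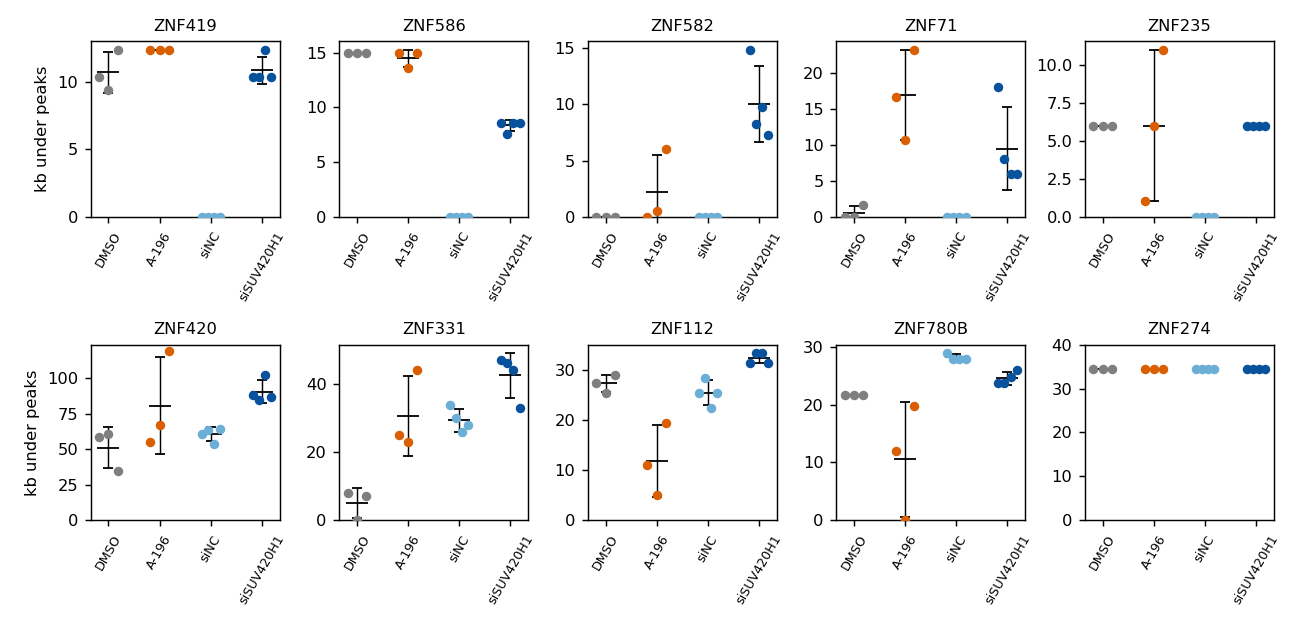
Length in kb of 10 gene spans with flanks under H4K20me3 peaks, per library (points) with the group mean and SD (bars); each panel has its own scale from 0. ZNF419, ZNF586, ZNF582, ZNF71 and ZNF235 are at 0 in the 4 siNC libraries and above 0 in the 4 siSUV420H1 libraries, ZNF112 is lowest in A-196, and ZNF274 is at 34.5 kb in all 14 libraries.

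The count of higher members is bounded by how much was covered already. In siNC 17 members were wholly under peaks in every library and could not gain, 42 had no peak in any library, and the other 107 had part of their span under a peak in at least 1 library. In siSUV420H1 the wholly covered members numbered 32 and those with no peak in any library 36. Scaling each library's lengths to its covered total, for which the log2 ratio of siSUV420H1 to siNC was -0.59, gave 119 higher members and 0 lower, but 17 of the 119 are the wholly covered members, whose scaled length is set by the factor alone. Under this scaling over all tested genes the split moved from 10.4% higher and 33.6% lower to 31.3% higher and 23.5% lower.

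With A-196 the group's direction rested on 1 library. The members summed to 2872, 2598 and 2736 kb under peaks in DMSO replicates 1 to 3 and to 2741, 2449 and 3519 kb in A-196 replicates 1 to 3. The means were 2735 ± 137 kb and 2903 ± 553 kb (SD, n = 3 each), a difference of 168 kb that lies within the spread of the A-196 libraries. Without A-196 replicate 3 the difference was -140 kb, and without replicate 2 it was 394 kb. With peaks of at least 10 kb only it was -31.9 kb. Over all coding genes the difference with A-196 was -23.4%, with means of 39799 kb in DMSO and 30495 kb in A-196. It was 6.13% for the members, 5.23% for short-arm ZNF genes and -9.89% for ZNF genes elsewhere.

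Of the 148 members with a peak in the inhibitor arm, 15 lay higher in all A-196 libraries than in any DMSO library, where 3.83% of all 5659 tested genes did. In the other direction 5 lay lower, where 19.3% of all tested genes did. With 3 against 3 the smallest exact permutation p is 0.1, so the test cannot reach 0.05; the adjusted value for these members was 0.431, and 0 genes passed it or had an unadjusted p under 0.05. The limma fit gave 5 members higher and 0 lower, against 2.86% and 8.11% of all tested genes. Leaving out A-196 replicate 3 raised the lower members to 28, and leaving out replicate 2 or replicate 1 raised the higher members to 40 and 24. Over all tested genes the shares without replicate 3 were 25.2% lower, and without replicates 2 and 1 they were 8.24% and 8.9% higher, so fewer libraries raised the counts of all genes as well. Scaled to covered length, 83 members were higher and 0 lower, against 8.98% and 13.6% of all genes. The log2 ratio of covered length, A-196 to DMSO, was -0.61. Of the 83, 27 were wholly under peaks in every DMSO library, so their unscaled length could not rise with A-196.

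Of the 15 members higher with A-196, 9 lay in the last cluster, which holds 43 of the 166 members. Another 3 lay in the cluster before it, of 17 members, and 3 in the cluster from ZNF175 to ZNF331, of 41. This placing was not tested. Marking was gained in 3 of the 148 members with a peak in the arm and lost in 0, where 2.85% and 6.24% of all tested genes were gained and lost. Gains were thus no more frequent among the members than among all tested genes. All 3 are among the last 5 members of the arm: ZNF584 (chr19:58401558-58418327) with 9, 6 and 7 kb in A-196, ZNF324 (chr19:58467080-58475436) with 3.44, 6.44 and 5.44 kb, and ZNF446 (chr19:58476352-58489533), which encodes a protein with both a SCAN and a KRAB domain, with 5.65, 6.65 and 4.65 kb. All 3 were at 0 kb in the DMSO, siNC and siSUV420H1 libraries. ZNF324 and ZNF446 lie 915 bp apart and can share a peak. The calls of all 3 ended with peaks of at least 10 kb only.

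ZNF331 (chr19:53503235-53580269), an imprinted zinc finger gene, had 8, 0 and 7 kb in DMSO and 25, 23 and 44.3 kb in A-196, a mean difference of 25.8 kb. In the siRNA arm it had 34, 30, 26 and 28 kb in siNC and 47.3, 46.3, 44.3 and 33 kb in siSUV420H1, where replicate 4 lay inside the siNC range and the exact permutation p was 0.0571. ZNF71 had 0, 0 and 1.70 kb in DMSO and 16.7, 10.7 and 23.2 kb in A-196. ZNF583 (chr19:56404014-56427364) had 10, 11.4 and 11.4 kb in DMSO and 18.4, 22.4 and 22.4 kb in A-196, and ZNF470-DT, a divergent transcript that the RefSeq table lists as coding, had 0, 7.02 and 2.02 kb against 10.02, 9 and 15.4 kb. A-196 replicate 3 was the highest or joint highest library in each of these 4 genes. The A-196 calls of ZNF331, ZNF71 and ZNF470-DT ended with peaks of at least 10 kb only, that of ZNF331 also with an equal number of widest peaks per library, and ZNF331 and ZNF470-DT did not pass limma.

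The 5 members lower with A-196 were ZNF302, ZNF546, ZNF780B, ZNF404 and ZNF112. ZNF112 (chr19:44326553-44367217) had 27.4, 25.4 and 29 kb in DMSO and 11, 5 and 19.4 kb in A-196. ZNF302 (chr19:34675979-34686396) had 14.4, 11 and 14.02 kb against 0, 0 and 9 kb. ZNF404 (chr19:43872365-43883964) had 15.6 kb in each DMSO library and 6.64, 5.64 and 12.6 kb in A-196, and ZNF546 (chr19:39997060-40021038) had 15.04, 14.04 and 12.04 kb against 5, 0 and 11.04 kb. In these 5 genes A-196 replicate 3 was the library nearest to DMSO, and none of the 5 stayed lower when lengths were scaled to covered length or passed limma. ZNF404 also lost its call with 10 kb flanks, and ZNF404 and ZNF546 with peaks within 5 kb merged.

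The arms share no H4K20me3 library, so their calls can be set side by side. Of the 15 members higher with A-196 and the 52 higher with siSUV420H1, 3 were in both lists (20% of the first and 5.77% of the second): ZNF766, ZNF480 and ZNF71. Over all coding genes 32 were in both of these lists, 14.7% of the 217 and 7.75% of the 413, so the shares of the members are near the background. ZNF780B was lower in both arms, as were 593 of all coding genes (54.2% of the 1095 lower with A-196 and 44.3% of the 1338 lower with siSUV420H1). ZNF546 and ZNF112 were lower with A-196 and higher with siSUV420H1, a combination found in 55 of all coding genes (5.02% of those lower with A-196). ZNF112 had 25.4, 28.4, 22.4 and 25.4 kb in siNC and 31.4, 33.4, 33.4 and 31.4 kb in siSUV420H1, and ZNF546 had 15.04, 16.04, 15.04 and 16.04 kb against 17.04 kb in each siSUV420H1 library. The siSUV420H1 difference of ZNF546 turned to -0.47 kb with 10 kb flanks and that of ZNF112 lost its call with peaks within 5 kb merged, and neither A-196 difference passed limma (adjusted p of 0.335 and 0.225). ZNF766 had a mean difference of 2.36 kb with A-196 and 9.5 kb with siSUV420H1, and ZNF480 one of 2.94 kb and 3.21 kb.

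Both controls differed over the members as well. In every siNC library 52 members had less length under peaks than in every DMSO library, and 15 had more, out of 136 with a peak in either group. Among all 4059 coding genes with such a peak, 14.4% lay lower in siNC and 35.9% higher. ZNF155, ZNF235, ZNF548, ZNF17, ZNF419, ZNF776, ZNF586, ZNF552 and ZNF587B were marked in every DMSO and no siNC library (9 members; 3.52% of all tested genes), and ZNF181, ZNF30 and ZNF780A the other way round (3 members; 16% of all tested genes). The siRNA, the arm and the IgG library of the peak call differ together between these control groups and cannot be told apart.

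By position the members formed 14 clusters, parted wherever more than 500 kb lay between one gene and the next, and 7 of them held at least 3 members. They are numbered here from the centromere. Cluster 4 (26 genes, ZNF565 to ZNF573, chr19:36182060-37779586) had 59.3, 60.6, 57.9 and 54.96% of its length under peaks in siNC and 72.98, 69.2, 73.9 and 69.5% in siSUV420H1. It was among the 3 clusters with most cover in both siRNA groups, 23 of its 26 genes were marked in all 14 libraries, and 11 lay higher after knockdown. In DMSO it had 60.8, 52.8 and 54.1%, and in A-196 55.3, 47.9 and 79.4%, a range that holds the DMSO values.

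Cluster 12 (41 genes, ZNF175 to ZNF331, chr19:51571283-53580269) held the 141 kb common stretch. It had 46.4, 45.4, 44.9 and 45.5% under peaks in siNC, 60.9, 54.5, 58.6 and 55.4% in siSUV420H1, and 61.2, 57.2 and 60.7% in DMSO. Here 36 genes were marked in all 14 libraries and 20 lay higher after knockdown. Cluster 14 (43 genes, ZNF264 to ZNF446, chr19:57191500-58489533) had 34.7, 34.5, 33.3 and 36.6% in siNC and 45.8, 41.8, 45.99 and 42.5% in siSUV420H1, with 12 genes higher. In both clusters every siSUV420H1 library lay above every siNC library. In cluster 14 DMSO had 59.7, 51.5 and 57.9% and A-196 67.1, 60.7 and 73.8%, so the inhibitor libraries all lay above the DMSO libraries and both above the siRNA arm.

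Cluster 7 (23 genes, ZNF575 to ZNF180) had a mean of 30.97% in siNC, 36.1% in siSUV420H1, 38.5% in DMSO and 34.3% in A-196, with 6 genes higher after knockdown. Cluster 13 (17 genes, ZNF628 to ZNF835, chr19:55476617-56671757) had the least cover of the 7, with 2.57% in DMSO, 10.1% in siNC, 10.6% in A-196 and 14.04% in siSUV420H1, and 8 of its genes were marked in no library. Its treated libraries lay above the controls in both arms. The smaller clusters 3 (5 genes, ZNF302 to ZNF792) and 5 (3 genes, ZNF546, ZNF780B and ZNF780A), like cluster 13, had less cover in every DMSO library than in every siNC library, with mean values of 13.2% and 41.2% in DMSO against 33.1% and 61.8% in siNC. Cluster 5 had 18.1, 0 and 42.6% in A-196. ZNF599 (chr19:34758073-34807601), the gene of cluster 3 with the most length under peaks, had 23.9, 10 and 16.9 kb in DMSO and 27.5, 36.5, 36.5 and 37.5 kb in siNC. In siSUV420H1 cluster 3 had 33.2% and cluster 5 had 56.99%.

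**Figure D4:**
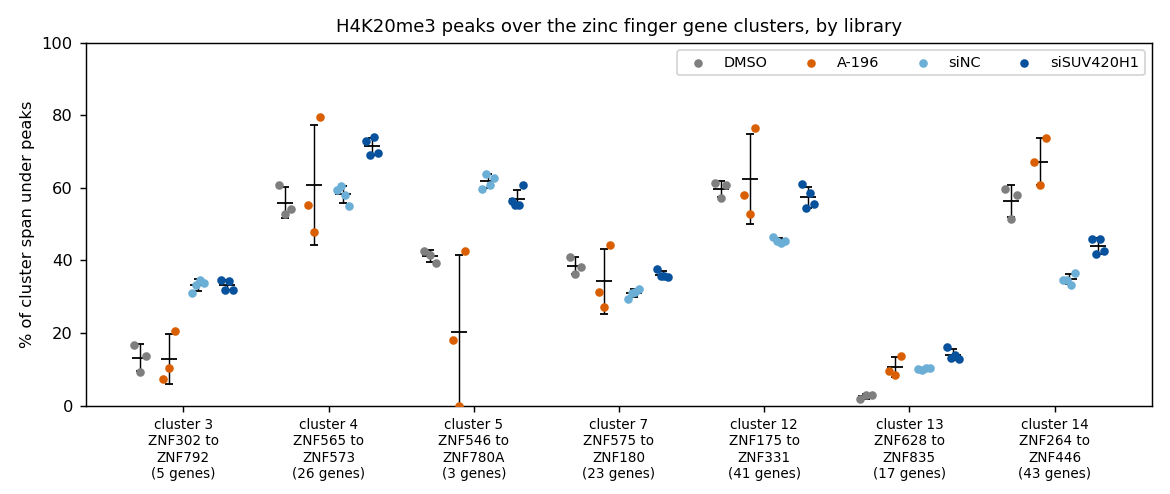
Percent of the length of each of the 7 clusters of at least 3 genes that lay under H4K20me3 peaks, per library (points) with the group mean and SD (bars). In clusters 4, 7, 12, 13 and 14 the siSUV420H1 libraries lie above the siNC libraries, in clusters 3, 5 and 13 the DMSO libraries lie below siNC, and the A-196 libraries spread most.

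Outside these clusters 8 members stand alone or in a pair: ZNF536, ZNF507, ZNF574, ZNF526, ZNF296, ZNF541, ZNF114 and ZNF473. ZNF536 (chr19:30225592-30713586), a regulator of neuronal differentiation and the longest member, had peaks of 5 and 10 kb in A-196 replicates 1 and 2 and in no other library. ZNF507, ZNF574, ZNF526 and ZNF296 were marked in none. ZNF473 (chr19:50026005-50048776), which encodes a U7 snRNP component of histone mRNA processing, had 10.8, 10, 10.8 and 10 kb in siNC, 11.8, 10, 11.8 and 10 kb in siSUV420H1, 10, 6 and 9 kb in DMSO, and 5, 0 and 6 kb in A-196. Its groups overlapped in both arms.

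Along the 146 genes of known strand, cover was greatest toward the 3′ end. In siNC peaks covered 35.2 ± 0.793% of the first decile of a gene, on average over genes, and 55.1 ± 1.74% of the last decile (SD over 4 libraries). In siSUV420H1 the values were 49.1 ± 3.13% and 62.9 ± 1.48%. The gap to siNC was thus 13.9 percentage points in the first decile, 13.3 in the 2 kb before the start and 7.86 in the last decile. It was 5.90 points at 10 to 8 kb before the start and 11.7 points at 4 to 6 kb after the end. With more cover in siNC, the last decile had less room to rise than the first. DMSO had 50.9 ± 3.08% and 58.1 ± 3.39% (n = 3), and A-196 55.7 ± 10.4% and 60.4 ± 8.26%. Short-arm ZNF genes had a gap of 20.1 points in the first decile and 4.92 in the last between the siRNA groups, and ZNF genes elsewhere 1.70 and 0.437 points.

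**Figure D5:**
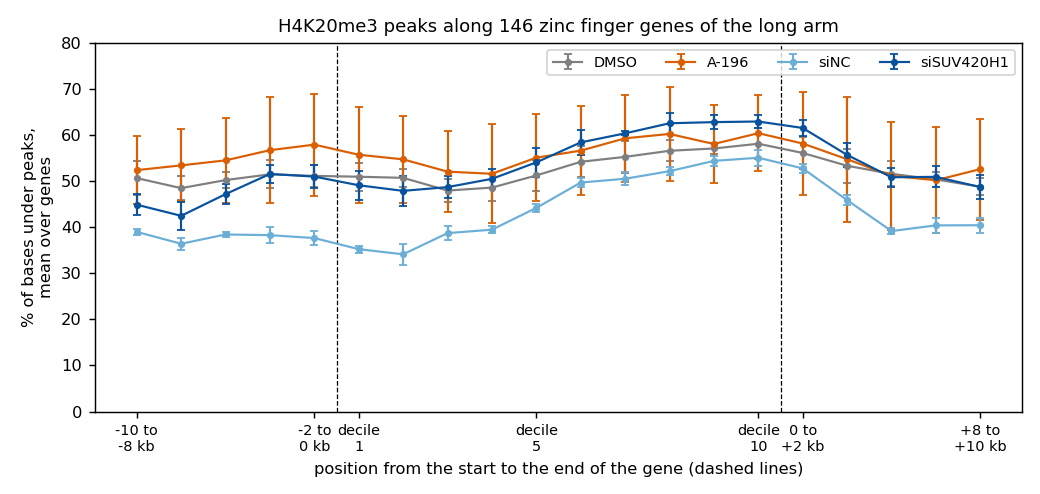
Percent of bases under H4K20me3 peaks, averaged over 146 genes of known strand, in 2 kb steps across 10 kb before the start, in deciles of the gene and in 2 kb steps across 10 kb after the end; lines join group means and bars are SD over libraries. The siNC line rises from 35.2% in the first decile to 55.1% in the last and lies below the other 3 groups throughout.

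At promoters, a window of 300 bases was counted as covered where a peak spanned it. Of the 146, 74.7 ± 4.93 were covered in DMSO (SD, n = 3), 84.7 ± 16.8 in A-196 (n = 3), 52.8 ± 3.10 in siNC (n = 4) and 74.5 ± 5.32 in siSUV420H1 (n = 4). In all 14 libraries 31 were covered and in none 32. The promoters of 8 members were covered in every siSUV420H1 and no siNC library, out of 85 covered anywhere in the arm, and 0 the other way round; over all coding genes the shares were 4.08% and 16.2%. The 8 are ZNF566, ZNF235, ZNF765, ZNF765-ZNF761, ZNF419, ZNF773, ZNF814 and ZNF606, of which ZNF765 and its read-through transcript share a start region. In the inhibitor arm 4 were covered in every A-196 and no DMSO library (ZNF549, ZNF256, ZNF584 and ZNF446) and 2 the reverse (ZNF302 and ZNF404), where 0.877% and 14.8% of all covered promoters were.

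The median CG count was near the same in windows covered in all 14 libraries and in none, with no test made. Among the printed windows, ZNF274, covered in all 14 libraries, holds 16 CG, and ZNF234 and ZNF304, covered in none, hold 20 each. ZNF419, covered in every library but those of siNC, holds 21, and ZNF404, covered in every library but those of A-196, holds 2. The median was 22 CG for the 31 windows covered in all 14 libraries and 23 for the 32 covered in none. It was 22.5 for all 146, 22 for all coding genes and 15 for short-arm ZNF genes. Genes marked in no library had a median of 25 (15 windows). Windows covered in every A-196 and no DMSO library had 29.5 (4 windows), and the reverse 15 (2 windows). Windows covered in every siSUV420H1 and no siNC library had 25 (8 windows). Across members, Spearman's rho with the mean share of the span under peaks in the 7 control libraries was -0.15 for CG count (n = 146), 0.23 for gene length (n = 166) and 0.18 for the number of other members within 100 kb (n = 166). These are descriptions across genes that share libraries and, for 70 members, overlapping spans. ZNF234 and ZNF112 were marked in all 14 libraries with a promoter covered in none.

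Several members are known from other work for promoter methylation in carcinomas or for a function of their own. ZNF671 (chr19:57719751-57727624) was wholly under peaks, at 11.9 kb, in every DMSO, A-196 and siSUV420H1 library and had 6.62, 5.62, 5.62 and 6.62 kb in siNC. ZNF154 (chr19:57696275-57709204) had 11.7, 10.7 and 12.7 kb in DMSO and 16.9, 14.9 and 16.9 kb in A-196, while siNC (8.73, 9.73, 8.73 and 9.73 kb) and siSUV420H1 (10.7, 9.73, 11.7 and 9.73 kb) touched. ZNF132 (chr19:58432814-58440153) and ZNF135 (chr19:58059239-58069755) overlapped between siNC and siSUV420H1. ZNF135 had 6.76, 5 and 6.76 kb in DMSO and 6.76, 10.5 and 14.52 kb in A-196, where the lowest A-196 value exceeds the highest DMSO value by less than the 1 kb grid of the peaks. The A-196 call of ZNF135 ended without flanks and with peaks of at least 10 kb only, and neither ZNF135 nor ZNF154 passed limma.

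ZNF808 (chr19:52527668-52568753), a KRAB gene whose loss causes pancreatic agenesis, had 30.1, 29.1, 35.1 and 31.1 kb in siNC and 45.1, 38.1, 45.1 and 40.1 kb in siSUV420H1. ZNF146 (chr19:36214723-36238768), which encodes zinc fingers without a KRAB domain, had 10, 9, 9 and 9 kb against 13.8, 13.8, 12.8 and 13.8 kb. ZNF382 (chr19:36605313-36634114), a KRAB gene reported as silenced in tumours, had 28.1, 28.1, 26.8 and 16.1 kb against 29.8, 30.1, 31.1 and 32.8 kb. All 3 lay higher in every siSUV420H1 library, and siNC replicate 4 was far below the other siNC libraries in ZNF382. ZNF382 did not pass limma (adjusted p of 0.174) and lost its call with peaks within 5 kb merged. With A-196 the libraries of all 3 overlapped DMSO.

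Among the members with the longest cover in the 7 control libraries, ZNF567 (chr19:36666934-36727506), ZNF529 (chr19:36543613-36605543), ZNF577 (chr19:51804442-51887951), ZNF578 (chr19:52453553-52516882) and ZNF544 (chr19:58228914-58277455) had 37.9 kb or more under peaks in every control library. ZNF577 had 37.9 kb in each siNC library and 45.9, 47.9, 45.9 and 47.9 kb in siSUV420H1. ZNF544 had 44.1, 44.5, 43.5 and 45.5 kb in siNC and 52.5, 52.5, 52.5 and 50.5 kb in siSUV420H1, and its full 52.5 kb in every DMSO and A-196 library. ZNF578 had 51.4, 54.4, 52.4 and 51.4 kb against 60.4, 60.4, 59.4 and 60.4 kb, and ZNF529 52.4, 56.9, 51.4 and 48.4 kb against 62.9, 60.9, 61.9 and 61.9 kb. These 4 lay higher in every siSUV420H1 library, with the call of ZNF529 ending with peaks of at least 10 kb only or with peaks within 5 kb merged, whereas ZNF567, ZNF345 (chr19:36850365-36893218) and ZNF540 (chr19:37551374-37614179) overlapped or touched between the groups in both arms.

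The genes for the proteins that act at this heterochromatin were marked about as often as coding genes in general. Of 35 writers, readers and co-repressors, 25 (71.4%) were marked in no library, where 66.9% of all coding genes were; the 25 include TRIM28, the H4K20 methyltransferases KMT5B and KMT5C, and the HP1 genes CBX1, CBX3 and CBX5. With A-196 2 lay lower (ATF7IP, a SETDB1 partner, and EHMT1, an H3K9 methyltransferase) and 0 higher, where 19.3% and 3.83% of all tested genes were. After knockdown 1 lay lower and was lost (PHF2, a histone demethylase, with 8, 8, 9 and 13 kb in siNC and 0 in siSUV420H1) and 2 lay higher, where 33.6% and 10.4% of all tested genes did. Those were SETDB1, with 8, 6, 6 and 5 kb against 9 kb in each siSUV420H1 library, and EHMT1, with 18 kb in each siNC library against 20, 20, 25 and 19 kb. The shares of all tested genes count only genes with a peak in the arm, so they cannot be set against the 35. Listed genes with a peak in the inhibitor arm were ATF7IP, EHMT1, SUV39H1, DNMT3B, KMT5A and PHF8. In the siRNA arm they were SETDB1, ATF7IP, EHMT1, ATRX, SMARCAD1 and PHF2.

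The 66 other coding genes that start within the 7 clusters summed to 171 ± 11.7 kb in siNC and 224 ± 18.6 kb in siSUV420H1 (SD, n = 4 each), 30.7% more. They summed to 240, 222 and 219 kb in the DMSO libraries and to 261, 247 and 379 kb in the A-196 libraries, where replicate 3 was again the highest. Of the 17 with a peak in the siRNA arm 4 lay higher after knockdown (ZFP82, ZFP30, LOC124904708 and LOC122539214) and 0 lower, where 10.4% and 33.6% of all tested genes did. LOC122539214 (chr19:52650447-52690496) lies inside the member ZNF83, and LOC124904708 (chr19:37532851-37551339) overlaps the member ZNF793. Their calls, and the summed 30.7%, therefore count some bases of members again. LOC122539214 had means of 14.7 kb in siNC and 30.3 kb in siSUV420H1. Of the 33 with a peak in the inhibitor arm 4 lay higher with A-196 (ZSCAN5A, ZSCAN1, ERVK3-1 and ZSCAN22) and 0 lower, where 3.83% and 19.3% did. Of these 8, ZFP82, ZFP30, ZSCAN5A, ZSCAN1 and ZSCAN22 are zinc finger genes by name without the ZNF symbol.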

How the data were processed

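The authors deposited, for each of the 14 H4K20me3 libraries, a list of broad peaks on hg38, with start and end in bp and nothing else. Per the submitters' processing notes cutadapt 4.4, Bowtie, Picard 2.27.3 and bedtools 2.30.0 were used; the peak caller is not given in the sources used here. Starts and ends were multiples of 1000 bp, with no peak under 5 kb and no gap under 2 kb, which hides smaller shifts. In bulk cells, fewer cells with the mark and less mark per cell cannot be told apart.

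Gene spans and promoters came from RefSeq tables (GRCh38.p14), matched by symbol or gene ID; genes on scaffolds were left out after the files were seen. Overlap in bp was computed in Python 3.11.15 (numpy 2.4.6, pandas 2.3.3) for each span with 2 kb flanks. A gene was called higher or lower where the ranges of both groups were apart. Exact permutation tests (two-sided) ran per gene, Benjamini-Hochberg adjusted over all genes with a peak in the arm. The alternative was limma 3.58.1 in R 4.3.3 on log2(kb + 1). It was tried on simulated data with normal noise, without the grid of the peaks or the limit of a full span. That trial therefore does not show how limma performs on these lists. Genes with equal values within each group had zero variance, which limma offset.

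Groups came from sample titles. Genes are named by rule: the 10 longest in the 7 controls, the 5 largest falls and rises per arm, lost and gained genes, the longest of each cluster, and a list by background; others named were picked with their values in view. The members and lists were chosen with earlier results of these data known. Replicate numbers were not used as pairs: the correlation of same-numbered libraries' deviations ran from -0.14 to -0.0067 in the inhibitor arm and from -0.51 to 0.14 in the siRNA arm.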

Additional observations from a re-analysis of the deposited data

Results flagged for a closer look

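Among the 41 genes named by rule, in 14 combinations of a gene and an siRNA group, 1 of the 4 libraries lay far from the other 3 for its group's range. Chance does this in about 1 of 20 groups, and on a 1 kb grid 3 equal values make it more frequent. In siNC these were ZNF382, where replicate 4 had 16.1 kb against 26.8 to 28.1 kb, ZNF600, where replicate 1 had 53.5 kb against 40.5 to 42.5 kb, and ZNF599, where replicate 1 had 27.5 kb against 36.5 to 37.5 kb. Other outlying siNC libraries had 10 kb in ZNF146, 6.19 kb in ZNF132, 28.97 kb in ZNF780B and 14.42 kb in ZNF302. Each lay within about 1 kb of the rest of its group.

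In siSUV420H1 the largest was ZNF71, where replicate 1 had 18 kb against 6 to 8 kb. The others were ZNF132 (5.19 kb), ZNF146 (12.8 kb), ZNF419 (12.3 kb), ZNF544 (50.5 kb), ZNF578 (59.4 kb) and ZNF586 (7.62 kb), each within 2 kb of its group. ZNF71 stayed above every siNC library without replicate 1.

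ZNF112 and ZNF546 differed from control in opposite directions in the arms, lower in 3 of 3 A-196 libraries and higher in 4 of 4 siSUV420H1 libraries. The A-196 difference minus the siSUV420H1 difference was -22.5 kb for ZNF112 and -9.86 kb for ZNF546. Permuting the labels within each arm gave an exact p of 0.00143 for each, the smallest that the 1400 assignments can give, and 0.123 after adjustment over 6622 genes, so the difference did not pass. Of the 150 members tested in this way, 23 had an unadjusted exact permutation p under 0.05, against 12.97% of all genes.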

How the results depend on the processing

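A-196 against DMSO. The summed difference of 168 kb ran from -140 to 394 kb when 1 library was left out, and was 1448 kb with lengths scaled to covered length. The 15 higher members became 7 with peaks of at least 10 kb, 83 with scaled lengths, 5 with limma, 4 with limma and a replicate block, 0 by the adjusted exact permutation p, and 16 to 40 when 1 library was left out. The 5 lower members became 0 with scaled lengths, limma, limma with a block and the adjusted exact p. They became 3 with peaks within 5 kb merged and 8 where every same-numbered pair moved the same way. The lower count ran from 5 to 28 when 1 library was left out. Over all tested genes limma with a block gave 1.68% higher and 4.21% lower. For wide or merged peaks, pairs and a DMSO library left out no share of all genes is given, so those counts have no background.

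siSUV420H1 against siNC. The summed difference of 544 kb was 786 kb with 10 kb flanks, 660 kb with an equal number of peaks per library, 1714 kb scaled, and 499 to 577 kb when 1 library was left out. The 52 higher members were 119 scaled and 0 by the adjusted exact permutation p. They were 41 with limma and a replicate block, where 8.18% of all tested genes were higher and 28.8% lower. By pairs they were 60, with no share of all genes given, and 52 to 60 when 1 library was left out. With 1 siSUV420H1 library left out, 10.98% to 12.69% of all tested genes were higher. The 1 lower member became 2 with 10 kb flanks, 0 with peaks of at least 10 kb, with an equal number of peaks, scaled or by the adjusted exact p, and stayed 1 when any 1 library was left out. ZNF546 turned to -0.47 kb with 10 kb flanks, and ZNF780B to 0.5 kb with peaks of at least 10 kb and 7.32 kb scaled.

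The pairing by replicate number has no support beyond the number: only siRNA replicate 2 correlated best with its own number. Merging overlapping spans, chosen after seeing the data, left 42 higher after knockdown and 11 with A-196. Gaps of 250 or 1000 kb gave 15 or 11 position clusters in place of 14. Without read counts, what depth limits is unknown. The causes were not tested.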
